A study of Mus musculus with 14 samples.

Results

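The cell cycle and DNA replication genes examined were 53 genes chosen by name, with earlier results of these data known. They were cyclins, cyclin-dependent kinases (CDKs) and their regulators, E2F factors and pocket proteins, origin licensing and DNA synthesis genes, and mitotic kinases. A peak belonged to a gene when the authors' annotation gave it that gene's symbol, and a gene without a listed peak counted as not bound. Over the 12 libraries together, 12 of the 53 genes (22.6%) had a listed peak and 41 had none, against 14.5% of the 21896 coding genes of RefSeq, the reference gene catalog. The 12 genes held 36 of the 10303 listed peaks (0.349%), which carry 4384 gene names.

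All cells came from mice labeled wild-type that carried a mito-Dendra2 allele switched on by a Pax7-Cre(ERT2) driver, so that the fluorescent mitochondrial protein marked muscle stem cells (MuSCs) and their progeny. Recombination was induced in every animal with 5 daily doses of tamoxifen (75 mg/kg), followed 2 days later by 50 µL of 1.2% BaCl2 in the tibialis anterior muscle of one leg to injure it and saline in the other leg; cells were sorted 2 days after injury. Quiescent stem cells (QSCs; CD34+, Dendra2+, DAPI-) came from the saline muscle and activated stem cells (ASCs; CD34-, Dendra2+, DAPI-) from the injured muscle. Chromatin was precipitated with an antibody to MyoD or to MyoG, 3 libraries for each antibody and cell state, and ages and the number of animals in a library are not given in the sources used here. Because peak lists hold no expression values, the cell type could not be checked against its markers.

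MyoD and MyoG are basic helix-loop-helix factors that bind the E-box, a short DNA motif, and drive the muscle program, MyoD in early activated cells and MyoG at differentiation. Quiescent MuSCs are outside the cell cycle, enter it after injury, and leave it for good as they differentiate. Entry into S phase runs through cyclin E, CDK2 and the activating E2F factors, which are held in check by pocket proteins. Replication starts at origins that ORC, Cdc6, Cdt1 and the MCM helicase have licensed, and mitosis is set in motion by CDK1, Cdc25 phosphatases and the Aurora and Polo kinases.

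MyoD peaks at these genes were listed in ASCs and in no QSC library. The number of the 53 genes with a peak was 8, 5 and 6 in the 3 ASC MyoD libraries (mean 6.33 ± 1.53, SD, n = 3) and 0 in each QSC MyoD library. The groups did not overlap, and the difference of 6.33 genes had an exact two-sided permutation p of 0.1 (adjusted over 6 tests, 0.2), the smallest p that 3 libraries against 3 allow. The score given by the peak caller MACS rises with the significance of a peak, as 10 times the negative log10 p, and no listed peak was below 50.0. The difference was 2.67 genes at a score of at least 80, 4.0 without distal intergenic peaks and 1.67 with promoter peaks only, each with the same exact p of 0.1. The lists themselves differed in size. ASC MyoD lists held 2262 to 2652 peaks and covered 6.55% to 7.60% of all coding genes, whereas QSC MyoD lists held 139 to 174 peaks and covered 0.292% to 0.448% of them. Read depth is not known, and the part of list size or depth in the difference was not tested. As a share of the genes with a peak, the members made up 0.387%, 0.277% and 0.321% in ASC MyoD libraries (mean 0.328% ± 0.0557) and 0% in QSC MyoD libraries (exact permutation p = 0.1, adjusted 0.2). The QSC MyoD lists named only 145, 104 and 143 genes, and at a share this low such a list may hold none of the 53. This comparison therefore does not correct for list size.

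MyoG peaks were fewer. The ASC MyoG libraries had a peak at 2, 1 and 2 of the 53 genes (mean 1.67 ± 0.577, SD, n = 3), and the QSC MyoG libraries at 0, 0 and 1 (mean 0.333 ± 0.577). All coding genes were covered at 1.10% to 1.74% in ASC MyoG and 0.347% to 0.502% in QSC MyoG lists. The counts of the groups overlapped at 1 gene. The difference of 1.33 genes had an exact two-sided permutation p of 0.2 (adjusted 0.3), where 0.1 is the smallest possible. As a share of the genes with a peak, the values were 0.303%, 0.237% and 0.463% in ASCs against 0%, 0% and 0.629% in QSCs (exact permutation p = 0.6, adjusted 0.72). Within ASCs, MyoD libraries had peaks at 4.67 more of these genes than MyoG libraries (exact permutation p = 0.1, adjusted 0.2), without overlap of the groups. The share of all coding genes did not overlap either, at 6.55% to 7.60% in ASC MyoD and 1.10% to 1.74% in ASC MyoG lists. These lists held 2262 to 2652 and 605 to 916 peaks, and the part of list size in the difference was not tested. Within QSCs, the MyoD minus MyoG difference was -0.333 genes (exact permutation p = 1, adjusted 1), all of it from 1 peak in QSC MyoG replicate 3, and it was 0 without that library. Replicates carry no statement of separate animals in the labels, so p-values measure the spread between libraries.

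**Figure D1:**
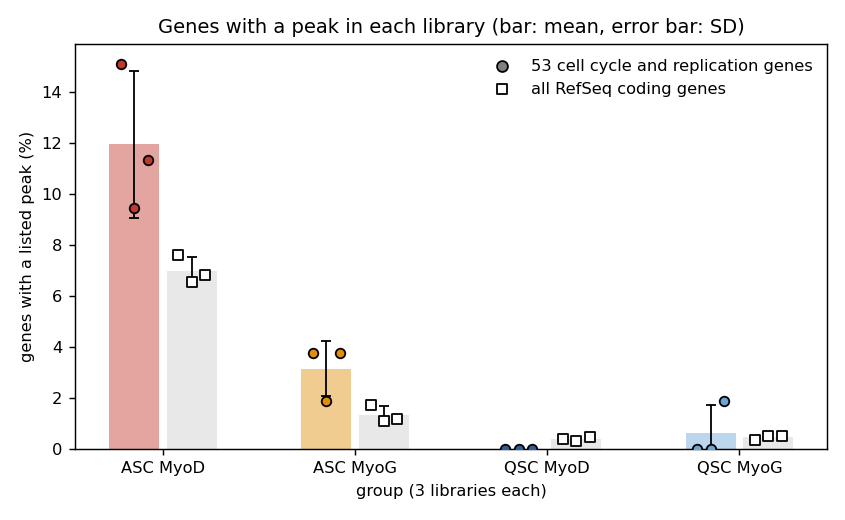
Percent of the 53 cell cycle and replication genes (circles, colored bars) and of all RefSeq coding genes (squares, gray bars) with at least 1 listed peak in each library. Bars give the mean and error bars the SD of 3 libraries. ASC MyoD libraries sit at 9.43% to 15.1% for the 53 genes and at 6.55% to 7.60% for all coding genes, while the QSC MyoD libraries are at 0% for the 53 genes.

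With a peak required in at least 2 libraries of a group, 7 of the 53 genes were bound by MyoD in ASCs (13.2%), against 6.34% of all coding genes. These were Mnat1, E2f2, Cdc25b, Cdk1, Cdk17, Plk2 and Rrm2. The 53 genes were chosen with earlier results of these data known, and the gap between these shares depended on how a bound gene was defined. With a peak in all 3 libraries, 2 genes were left (Mnat1 and E2f2, 3.77%), against 3.9% of coding genes. At a score of at least 80, the same 2 genes were bound in at least 2 libraries, against 2.89% of coding genes. Without distal intergenic peaks, 4 genes were bound in at least 2 libraries (7.55%), against 4.55% of coding genes, and with promoter peaks only 2 (3.77%), against 1.64%. With at least 1 library, the count was 10 (18.9%), against 10.7%. Each library mattered: the count of genes in both remaining libraries was 4 (7.55%, against 4.45% of coding genes) without ASC MyoD replicate 1, 4 (7.55%, against 4.9%) without replicate 2, and 3 (5.66%, against 4.8%) without replicate 3. For MyoG in ASCs, 1 of the 53 genes (1.89%) had a peak in at least 2 libraries, Mnat1, against 0.489% of coding genes, and 3 (5.66%) had a peak in at least 1, against 3.36%. In QSCs, 0 of the 53 genes had a peak in at least 2 libraries with either antibody. The share of coding genes was 0.0731% for QSC MyoD and 0.0502% for QSC MyoG.

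**Figure D2:**
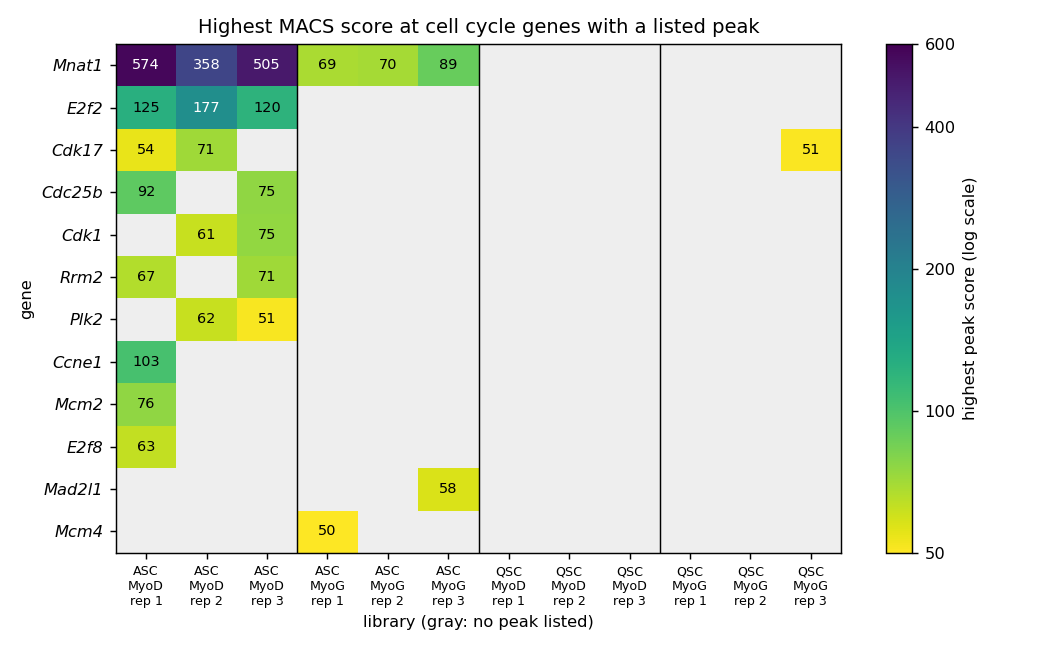
Highest MACS score (color, log scale, and number) at each of the 12 genes with a listed peak, in each of the 12 libraries; gray cells have no listed peak. Mnat1 and E2f2 fill all 3 ASC MyoD columns, Mnat1 also fills the 3 ASC MyoG columns, and the QSC columns hold a single entry, 50.6 at Cdk17.

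The DNA just around the start sites was examined next. RefSeq promoter windows of 300 bases (250 before and 50 after the start; GRCm38.p6, a patch release of the assembly mm10) were at hand for 41 of the 53 genes, 45 windows in all. None of the 45 was touched by a peak of any library, and 0.56% of the 21262 windows of coding genes were touched by a peak in at least 2 ASC MyoD libraries. Shown are the windows of Cdc25b and E2f2 (the first of its 2 start sites), which had the promoter-annotated peaks, of Rrm2, which had the nearest distal region, and of Mnat1, which had the highest score. They run 5′ to 3′ on the strand of the gene, with every E-box (CANNTG) in capitals. They lie at chr2:131186698-131186997 for Cdc25b, chr4:136172024-136172323 for E2f2, chr12:24708004-24708303 for Rrm2 and chr12:73123467-73123766 for Mnat1, all on the plus strand.

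Cdc25b: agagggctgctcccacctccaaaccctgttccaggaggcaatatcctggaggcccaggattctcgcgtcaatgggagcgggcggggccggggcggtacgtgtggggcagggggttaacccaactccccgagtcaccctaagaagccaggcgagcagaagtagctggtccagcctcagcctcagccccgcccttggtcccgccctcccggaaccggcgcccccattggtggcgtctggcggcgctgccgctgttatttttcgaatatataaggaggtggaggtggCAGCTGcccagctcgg

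E2f2: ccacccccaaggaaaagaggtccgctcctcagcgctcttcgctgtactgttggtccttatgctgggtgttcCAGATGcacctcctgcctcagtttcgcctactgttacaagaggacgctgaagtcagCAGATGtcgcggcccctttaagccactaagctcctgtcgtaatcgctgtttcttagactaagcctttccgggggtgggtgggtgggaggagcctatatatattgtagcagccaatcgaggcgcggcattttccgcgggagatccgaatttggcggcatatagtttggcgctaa

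Rrm2: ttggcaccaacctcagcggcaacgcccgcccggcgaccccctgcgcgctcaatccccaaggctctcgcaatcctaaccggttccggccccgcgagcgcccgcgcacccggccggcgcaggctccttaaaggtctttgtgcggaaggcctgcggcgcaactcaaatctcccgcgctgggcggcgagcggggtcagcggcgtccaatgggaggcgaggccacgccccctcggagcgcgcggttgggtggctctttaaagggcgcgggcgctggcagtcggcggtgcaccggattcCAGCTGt

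Mnat1: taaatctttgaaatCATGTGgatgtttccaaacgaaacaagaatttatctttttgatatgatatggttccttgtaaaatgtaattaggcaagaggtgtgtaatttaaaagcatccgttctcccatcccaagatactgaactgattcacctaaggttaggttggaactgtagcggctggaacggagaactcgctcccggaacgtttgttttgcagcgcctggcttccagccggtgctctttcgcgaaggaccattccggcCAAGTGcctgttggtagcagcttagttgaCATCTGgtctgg

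Cdc25b and Rrm2 each hold 1 E-box of the form CAGCTG, 34 and 43 bases after the start base. The E2f2 window shown holds 2 E-boxes of the form CAGATG, at positions -179 and -123 counted from the start base as 0. The window of its second start site, not shown, holds CATGTG at -164 and CAGGTG at -15. Mnat1 holds CATGTG at position -236, then CAAGTG at 9 and CATCTG at 38. Over the windows of the 53 genes, searched on both strands, 25 of 45 held a CANNTG (55.6%, against 69.0% of all windows of coding genes). CAGCTG was in 7 (15.6%, against 15.6%), and CAGGTG, which reads CACCTG on the other strand, was in 2 (4.44%, against 19.7%). Both of these forms are also counted under CANNTG. Of the genes bound in at least 2 ASC MyoD libraries, 6 had windows, 7 in all. CANNTG was in 7 of these 7 (against 69.0% of all windows of coding genes), CAGCTG in 2 (28.6%, against 15.6%) and CAGGTG in 1 (14.3%, against 19.7%). E2f2 gave 2 of the 7 windows, and no peak touched any of the 7, so these counts do not describe bound DNA. Motifs known from cell cycle promoters were in a larger share of the 45 windows than of all windows. The E2F motif TTTGGCGC was in 7 (15.6%, against 0.635%), its variant TTTCCCGC in 6 (13.3%, against 1.41%), and the CCAAT box in 31 (68.9%, against 38.2%). A match describes letters in the window and is not a measured site.

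By function, no class had more than 1 gene with a peak in at least 2 ASC MyoD libraries. The origin licensing genes had 0 of 10 with such a peak, the E2F factors and pocket proteins 1 of 9 (E2f2), the mitotic regulators and proliferation markers 1 of 9 (Plk2), and the cyclins and CDKs of S phase and mitosis 1 of 7 (Cdk1). The other cyclins and CDKs had 1 of 6 (Cdk17), the DNA synthesis genes 1 of 5 (Rrm2), Cdc25 phosphatases and Wee1 1 of 4 (Cdc25b), and the CDK-activating kinase 1 of 3 (Mnat1). With 6.34% of all coding genes bound by the same definition, counts of 0 or 1 in classes of this size do not set one class apart from another or from the background.

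The highest scores lay at Mnat1 (ENSMUSG00000021103), which encodes the assembly factor of the CDK-activating kinase, the complex with Cdk7 and cyclin H that phosphorylates CDKs and is also part of the transcription factor TFIIH. A region in intron 7 (chromosome 12, 73241590 to 73242747 on mm10, 118 kb downstream of the start site) had MyoD scores of 574, 358 and 505 in the 3 ASC libraries (mean 479 ± 110, SD, n = 3). These peaks ranked 5 of 2652, 15 of 2262 and 6 of 2296 by score in their lists. The same region carried MyoG peaks in all 3 ASC libraries, with scores of 68.6, 70.1 and 88.7 (mean 75.8 ± 11.2), which ranked 223 of 916, 164 of 605 and 96 of 639. No QSC library had a peak there with either antibody. It was 1 of the 12 ASC MyoG regions, out of 221 with peaks in at least 2 libraries, that overlapped an ASC MyoD region of the same kind. No other of these 12 was at the 53 genes. MyoD and MyoG scores come from different lists and were not compared in size.

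MyoD had 3 more regions in Mnat1. In intron 6 (73206059 to 73207668), the scores were 168, 79.3 and 89.2 in ASC replicates 1, 2 and 3 (mean 112 ± 48.4). A neighboring intron 6 peak (73210338 to 73210921) was listed in replicate 2 only, with a score of 69.9. Near the end of the gene, an intron 7 region (73269623 to 73270590) had scores of 79.8 and 68.1 in replicates 1 and 2, and it also lies inside the RefSeq span of Trmt5, a tRNA methyltransferase gene. The strongest region lies 26.3 kb from Trmt5, 44.6 kb from Slc38a6 and 128 kb from Six4, a homeobox gene of the muscle lineage. Cdk7 and Ccnh, the partners of Mnat1 in the kinase, had no listed peak.

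**Figure D3:**
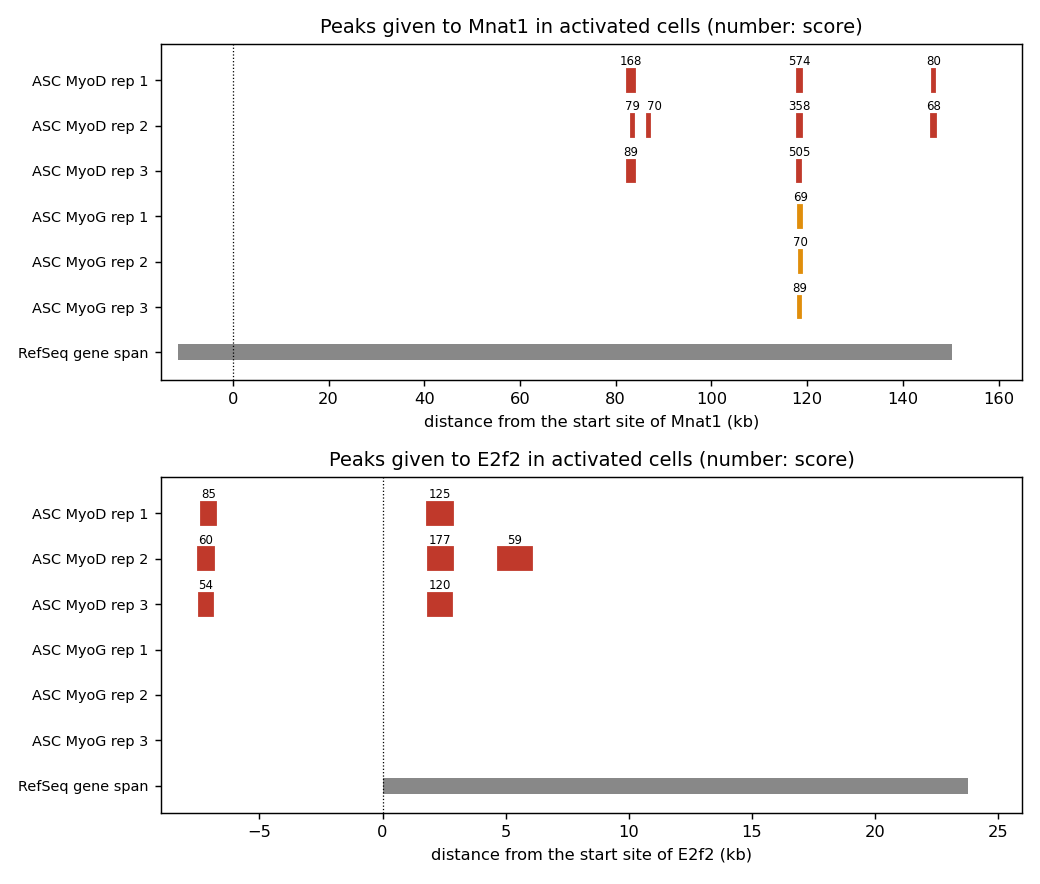
Peaks given to Mnat1 (top) and E2f2 (bottom) in the 6 ASC libraries, drawn to scale against the distance from the RefSeq start site of the gene in kb; the number at each peak is its score, and the gray bar is the RefSeq gene span. In Mnat1 the MyoD and MyoG peaks coincide 118 kb downstream of the start site, and in E2f2 the MyoD peaks of the 3 libraries stack 2.33 kb downstream and 7.13 kb upstream of it, with no MyoG peak.

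E2f2 (ENSMUSG00000018983) encodes an E2F factor of the activating kind, which turns on S phase genes. A region annotated as promoter, at 1 to 2 kb from a start site (chromosome 4, 136174068 to 136175132), had MyoD scores of 125, 177 and 120 in the 3 ASC libraries (mean 141 ± 31.2, SD, n = 3). All of them lay in the upper part of their lists, with 82.1%, 92.9% and 84.2% of the listed peaks scoring no higher. Its center is 2.33 kb downstream of the nearest RefSeq start. A distal intergenic region 7.13 kb upstream (136164780 to 136165505) was also listed in all 3 libraries, with lower scores of 85.0, 59.7 and 54.2 (mean 66.3 ± 16.4), and it lies 19.8 kb from Id3, which encodes an inhibitor of helix-loop-helix factors. A further promoter peak (136176946 to 136178340) was listed in replicate 2 only, at 59.0. E2f8 (ENSMUSG00000046179), an atypical E2F that represses transcription, had 1 peak in exon 10 (chromosome 7, 48870062 to 48870720) in ASC MyoD replicate 1, at 62.7. The other 7 genes of this class, E2f1, E2f3, E2f4, E2f5, E2f7, Rbl1 and Rbl2, had no listed peak.

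Among the CDKs, cyclins and phosphatases, Cdc25b (ENSMUSG00000027330), a phosphatase that activates CDK1 at entry into mitosis, had the only peak annotated within 1 kb of a start site. It was listed in ASC MyoD replicates 1 and 3 (chromosome 2, 131189484 to 131190539), with scores of 92.2 and 75.4, and not in replicate 2. The RefSeq start site used here is 3.06 kb upstream of its center. Cdk1 (ENSMUSG00000019942), the kinase of mitosis, had a distal intergenic region (chromosome 10, 69326105 to 69326979) in replicates 2 and 3, with scores of 61.4 and 74.6. That region is 8.60 kb past the far end of the gene and 34.8 kb from Rhobtb1, the nearest other coding gene. A second Cdk1 peak, 82.5 kb upstream (69435135 to 69435723), was in replicate 3 only, at 56.1. Ccne1 (ENSMUSG00000002068), cyclin E1, had a distal peak 18.1 kb upstream (chromosome 7, 38125100 to 38126145) in replicate 1 only, at 103.

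Cdk17 (ENSMUSG00000020015), a kinase of the PCTAIRE family, counted as bound by gene but had no shared region. Its intron 1 held a peak in ASC MyoD replicate 1 (chromosome 10, 93194422 to 93195188, score 54.4) and in replicate 2 (93195662 to 93196152, score 71.1), and these did not overlap. A further peak of that intron (93197105 to 93197803) was the only peak of the 53 genes in a QSC library, in QSC MyoG replicate 3, at 50.6 and rank 147 of 167. Thus 6 of the 7 genes had a region shared by at least 2 ASC MyoD libraries. Ccna2, Ccnb1, Ccnb2, Ccne2, Ccng1, Ccng2, Ccnt1, Ccnt2, Cdk2, Cdk14, Cdc25a, Cdc25c and Wee1 had no listed peak.

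In DNA synthesis and licensing, Rrm2 (ENSMUSG00000020649), the small subunit of ribonucleotide reductase, had a distal intergenic region 4.98 kb upstream of its start (chromosome 12, 24702935 to 24703615), with scores of 66.7 and 71.2 in ASC MyoD replicates 1 and 3. Mcm2 (ENSMUSG00000002870), a subunit of the MCM helicase, had a peak in exon 12 (chromosome 6, 88886319 to 88887060) in replicate 1 only, at 75.7. Mcm4 (ENSMUSG00000022673), another subunit, had a distal MyoG peak (chromosome 16, 15616055 to 15616503) in ASC replicate 1 only, at 50.3 and rank 884 of 916. Cdc6, Cdt1, Mcm3, Mcm5, Mcm6, Mcm7, Orc1, Orc2, Pcna, Pola1, Pole and Rrm1 had no listed peak in any library.

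Among the mitotic genes, Plk2 (ENSMUSG00000021701), a Polo kinase of centriole duplication, was given a distal intergenic region 148 kb downstream of its start site (chromosome 13, 110542099 to 110543065). Its scores were 61.8 and 51.5 in ASC MyoD replicates 2 and 3, the second at rank 2132 of 2296. Mad2l1 (ENSMUSG00000029910), a protein of the spindle checkpoint, had a distal MyoG peak 129 kb upstream (chromosome 6, 66405914 to 66406451) in ASC replicate 3 only, at 57.6. Aurka, Aurkb, Plk1, Bub1, Top2a, Mki67 and Foxm1, genes of dividing cells, had no listed peak.

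**Figure D4:**
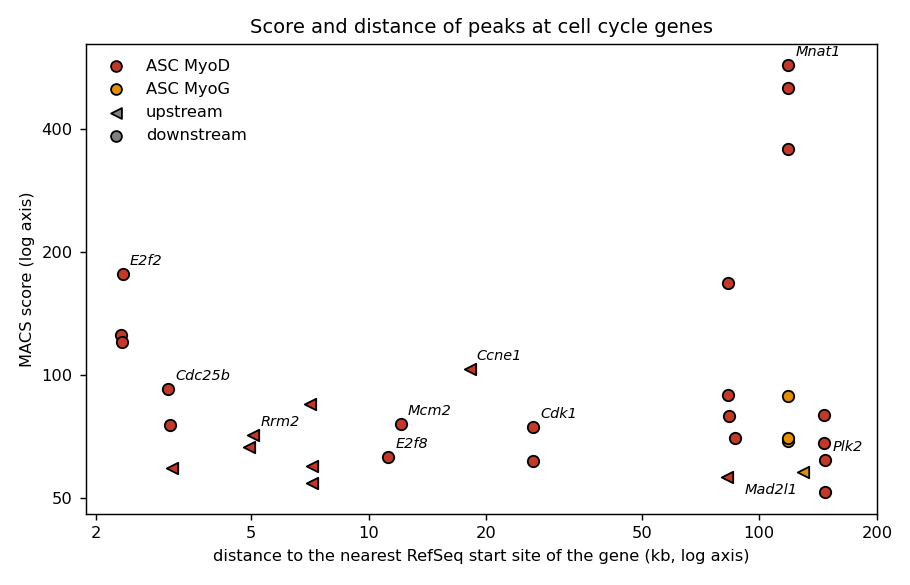
Score of each of the 32 member peaks with a RefSeq start site for the gene, against the distance of the peak center from the nearest start site (both axes on a log scale); triangles are upstream and circles downstream of the start, red for ASC MyoD and orange for ASC MyoG. The highest scores, 358 to 574 at Mnat1, are 118 kb from the start site, and no peak center is closer than 2.32 kb.

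The 9 ASC MyoD regions at these genes that had a peak in at least 2 libraries can be set beside the whole set of 1985 such regions. They comprised 2 promoter regions (22.2%, against 22.7% of all), 3 intronic regions (33.3%, against 35.2%) and 4 distal intergenic regions (44.4%, against 35.5%). The median distance to the nearest RefSeq start site of the assigned gene was 26.4 kb for the 9 regions and 30.0 kb for the 1347 regions whose gene has a start site in the table used. Of the 9 regions, 4 were present in all 3 libraries, and over all 1985 regions this share was 55.8%. All 3 intronic regions were in Mnat1, and the 4 regions present in all 3 libraries were at Mnat1 and E2f2 only. The median of the mean scores was 74.0 for the 9 regions and 82.3 for all, and 4 of the 9 were above the latter. The Mnat1 intron 7 region ranked 6 of 1985 by mean score. The 7 genes with a peak in at least 2 ASC MyoD libraries had a median RefSeq span of 17.8 kb, as did all 53 genes, whereas coding genes with a peak in at least 2 ASC MyoD libraries had a median span of 65.4 kb, against 15.9 kb for the others. No test was made of these descriptions.

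A further 117 genes of the cell cycle and replication, from a separate list, served to place the 53. That list, too, was chosen with earlier results of these data known. Of these, 18 had a peak in at least 1 library, and 9 (7.69%, against 6.34% of coding genes) had a peak in at least 2 ASC MyoD libraries. The 9 were Mad1l1, Ccnd1, Ccnd3, Rb1, Smc2, Anapc7, E2f6, Pola2 and Pold3. The highest mean scores were at a region of Mad1l1, a spindle checkpoint gene (164 ± 23.6, SD, n = 3), and at a region of the cyclin gene Ccnd1 (132 ± 42.4), each listed in all 3 libraries and annotated as promoter by the authors. The Mad1l1 region lies inside the gene, 57.2 kb from its nearest RefSeq start site in the table used. Ccnd3, which encodes a D-type cyclin, had 4 regions, the highest of them in intron 1 at 103 ± 23.6, and Rb1, the retinoblastoma pocket protein, had an intron 2 region at 121 and 82.7 in replicates 1 and 2. With MyoG, none of the 117 genes had a peak in at least 2 libraries, against 0.489% of coding genes in ASCs and 0.0502% in QSCs. In QSCs, Cdkn1a, which encodes the CDK inhibitor p21, had a distal intergenic MyoD region (chromosome 17, 29102801 to 29103598) and no ASC peak. The scores were 54.7 and 63.9 in replicates 1 and 2, whose lists had median scores of 54.7 and 56.5. The center of the region lies 2.48 kb outside the gene and 10.9 kb from Rab44. Cdkn1a was the sole gene of the 117 with a peak in at least 2 QSC libraries (0.855%, against 0.0731% of coding genes for QSC MyoD).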

How the data were processed

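DNA bound by MyoD or MyoG was sequenced from ASCs and QSCs (12 ChIP libraries; the 2 input libraries were not analysed here). The submitters' processing notes name BWA 0.7.5, MACS, deepTools 3.5.0 and the build mm10; the MACS version, the use of inputs and any filter are not given in the sources used here. The deposited lists hold, for each library, peak positions, the gene and gene part given by the authors, and a MACS score (10 times the negative log10 p, lowest value 50.0). Depth is unknown, so no read-based interval is given.

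Libraries were grouped by title. Genes with a peak were counted per library (Python 3.11.15, pandas 2.3.3) and compared by exact two-sided permutation tests, adjusted by Benjamini-Hochberg over 6 tests. Peaks of a group were joined into regions by 1 bp of overlap. Symbols or synonyms matched 3164 of 4384 listed names to RefSeq coding genes; all 53 genes matched, and 4 peaks had no gene name. Every member with a peak was named; other pathway genes were named when bound in at least 2 libraries. With no genome at hand, motifs were counted in promoter windows in place of peak regions, and the E2F and CCAAT motifs were added to that search later. The members and lists were chosen with earlier results of these data known. Counting steps were tested on simulated lists. Alternatives were a score of at least 80, leaving out distal peaks, promoter peaks only, other numbers of libraries, 50% overlap, leaving out libraries, pairing by replicate number and, added after seeing the data, peaks within 10 kb of a gene.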

Additional observations from a re-analysis of the deposited data

Results flagged for a closer look

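Aurkb, which encodes the Aurora B kinase of mitosis, had no peak of its own, but 2 ASC MyoD libraries (replicates 1 and 3) had a peak 7.44 kb from its RefSeq span that the authors' annotation gave to 9330160F10Rik as a promoter peak (chromosome 11; 69059107 to 69060140 in replicate 1, score 62.5, and 69059104 to 69060064 in replicate 3, score 51.4). It was singled out because it lies outside the peaks counted here and no QSC library had it. No other peak given to another gene lay within 10 kb of any of the 53 genes.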

How the results depend on the processing

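Of 120 recomputed differences and counts, 95 kept their direction or, for counts, stayed within 1.5 times the reported count. Part of the 95 was fixed in advance. QSC MyoD libraries had 0 of the 53 genes with a peak, and no alternative could add any. MyoD differences between ASCs and QSCs could thus not turn negative, nor the QSC MyoD count leave 0. No permutation p can be below 0.1 here, so for differences only the direction could change. Of 48 recomputed numbers of ASC MyoD libraries with a peak at a gene, 27 stayed within 1.5 times the reported number and 21 did not. Mcm4 and Mad2l1, at 0 libraries, could not change, and for the other genes fewer stayed than moved. Plk2, Cdk1 and Rrm2 went from 2 libraries to 0 at a score of at least 80, without distal peaks and with promoter peaks only. Plk2 did so too within 10 kb of the gene. The count of 7 genes bound in at least 2 ASC MyoD libraries was 2 at a score of at least 80, 4 without distal intergenic peaks, 2 with promoter peaks only, 2 in all 3 libraries, and 3 to 4 without 1 library. The 9 ASC MyoD regions became 3, 5, 2 and 4 under the first 4 of these, 17 with at least 1 library, and 5 to 6 without 1 library. The single ASC MyoG gene and region became 0 at a score of at least 80 and with promoter peaks only, and 3 with at least 1 library; the QSC MyoG count became 1 with at least 1 library. With promoter peaks only, the MyoG difference between ASCs and QSCs was 0, for genes and shares, as was the QSC difference between antibodies. The latter was also 0 at a score of at least 80 and without QSC MyoG replicate 3. It was -0.5 to 0 when 1 library was left out. The other differences kept their direction but not their size: at a score of at least 80 and without distal peaks, the ASC minus QSC difference was 2.67 and 4.0 genes for MyoD and 0.333 and 0.667 for MyoG, and MyoD minus MyoG in ASCs was 2.33 and 3.0; with promoter peaks only, the first and last were both 1.67. The difference in MyoG share (0.125 points) was 0.529 at a score of at least 80, 0.0121 without distal peaks, 0.0475 within 10 kb of the gene and 0.0197 to 0.334 when 1 library was left out. The cause of these changes was not tested. In a replicate block, the mean differences were the same by arithmetic: for the ASC minus QSC MyoD difference of 6.33 genes and its share of 0.328 points the exact sign-flip p was 0.25, the smallest possible, as it was for MyoG (1.33) and for MyoD minus MyoG in ASCs (4.67); it was 0.5 for the MyoG share (0.125 points) and 1 in QSCs (-0.333). Correlation over genes was -0.0210 to 0.0217 in 18 same-numbered library pairs (median 0.00637) and -0.0217 to 0.0188 in 36 other pairs (median -0.00310). Of 12 libraries, 6 correlated best with their own number. Correlations this small cannot show whether same-numbered libraries share animals, and the numbers were not treated as pairs. Peak lists show only sites past a threshold, so a gene without a peak was not detected at an unknown depth.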
